A study of Mus musculus with 4 samples.

Results

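The muscle ankyrin repeat genes Ankrd1, Ankrd2 and Ankrd23, the muscle RING finger genes Trim54, Trim55 and Trim63, and the F-box gene Fbxo32 were followed across 4 heart pools. These 7 genes were chosen by name as load-sensing and atrophy genes of striated muscle, and each had 1 probe set among 18783 named genes on the array. The pools were Mef2a-/- atria, Mef2a+/+ atria, Mef2a-/- ventricles and Mef2a+/+ ventricles, called KO and WT below. Each pool held total RNA of 7 mice aged 2 months, males and females together in numbers not given, and was read on 1 array. Mef2a encodes a MADS-box transcription factor of muscle, and the sources used here give neither the strain nor how the allele was made. With 1 array per group there was no replicate error and no test, so every difference below describes these pools. In bulk tissue, fewer cells of a type and less RNA per cell cannot be told apart.

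The muscle ankyrin repeat proteins bind titin in the elastic I-band of the sarcomere, and they also enter the nucleus, so they are studied as links between stretch and transcription. Ankrd1 encodes cardiac ankyrin repeat protein (CARP), a classic marker of cardiac load. Ankrd2 is best known from skeletal muscle, and Ankrd23 encodes DARP, named as a diabetes-related ankyrin repeat protein. Trim63, Trim55 and Trim54 encode MuRF1, MuRF2 and MuRF3, RING-type ubiquitin ligases of the M-line, Z-disc and microtubules. Fbxo32 encodes atrogin-1, the substrate-binding subunit of an SCF ubiquitin ligase, and together with Trim63 it is a standard marker of muscle atrophy under FOXO factors.

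Values are log2 intensities, so a difference of 1 is a doubling of signal, and intensities of different probe sets are not compared with each other. The array medians lay between 5.66 and 5.75 and the highest value on each array between 12.54 and 12.66. The interquartile range was 2.97 on the KO atria array and 3.18 to 3.21 on the other three. The floor was set at 5.71, the median over all probe sets and arrays. A gene was counted as past the fold when it differed by at least 1.5-fold between genotypes or 2-fold between chambers and the brighter array of the pair reached the floor. The chamber labels were borne out by their markers: all 6 atrial markers were at least 2-fold higher in atria in KO and in WT pools, and 4 of 4 ventricular markers in KO pools and 3 of 4 in WT pools were at least 2-fold lower in atria. Mef2a itself was at 10.41 in KO atria, against 10.32 in WT atria, and at 10.34 in KO ventricles, against 10.28 in WT ventricles, so its probe set did not check the genotype labels.

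The sequences before the start sites are shown for 3 genes, chosen as follows. Ankrd23 had the largest chamber ratio of the 7, and Ankrd1 was the 1 member above the floor with a positive one. Trim63 was the 1 other gene with a window that holds the FOXO motif found in Ankrd23. RefSeq promoter windows (build GRCm38.p6, 250 bases before to 50 after each start) were found for 5 of the 7 genes, with 6 windows in all, since Ankrd23 has 2 starts. Fbxo32 and Trim55 had no entry. The 250 bases before each start are printed 5′ to 3′ on the strand of the gene. Capitals mark the TEAD motif CATTCC, the FOXO motif GTAAACA and the TATA motif TATAAA, each on either strand.
Ankrd23, start 1, chr1:36536557-36536806, minus strand: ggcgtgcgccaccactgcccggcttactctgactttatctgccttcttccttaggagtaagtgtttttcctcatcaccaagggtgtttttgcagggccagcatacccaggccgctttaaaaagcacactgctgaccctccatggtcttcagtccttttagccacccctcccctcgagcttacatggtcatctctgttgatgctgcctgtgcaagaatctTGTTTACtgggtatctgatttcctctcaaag
Ankrd23, start 2, chr1:36535740-36535989, minus strand: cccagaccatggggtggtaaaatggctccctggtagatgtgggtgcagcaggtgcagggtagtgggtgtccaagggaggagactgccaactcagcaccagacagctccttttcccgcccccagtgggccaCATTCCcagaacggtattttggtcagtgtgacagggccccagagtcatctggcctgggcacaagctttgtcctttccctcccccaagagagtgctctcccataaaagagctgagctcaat
Ankrd1, chr19:36119845-36120094, minus strand: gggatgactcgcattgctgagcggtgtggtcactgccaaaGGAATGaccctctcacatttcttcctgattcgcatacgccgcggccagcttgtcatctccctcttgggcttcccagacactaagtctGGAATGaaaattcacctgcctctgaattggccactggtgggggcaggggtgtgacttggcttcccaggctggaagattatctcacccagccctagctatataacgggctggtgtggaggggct
Trim63, chr4:134314870-134315119, plus strand: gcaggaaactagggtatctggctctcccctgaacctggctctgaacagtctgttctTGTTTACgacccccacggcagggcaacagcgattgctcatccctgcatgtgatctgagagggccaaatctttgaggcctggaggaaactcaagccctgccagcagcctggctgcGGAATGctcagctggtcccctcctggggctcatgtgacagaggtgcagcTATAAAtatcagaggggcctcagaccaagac

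The TEAD motif, also named M-CAT, was in 5 of the 6 windows, those of Ankrd1, Ankrd23 (both starts), Trim54 and Trim63, while 14.7% of all 32851 windows of the same length held it. Ankrd1 and Trim54 each had 2 copies, at 210 and 123 bases before the start in Ankrd1 and at 163 and 75 bases before it in Trim54. In Ankrd23 the copy of start 1 lay 36 bases after the start, outside the printed stretch, and that of start 2 lay 120 bases before it. The FOXO motif was in the windows of Ankrd23 (start 1, 31 bases before it) and Trim63 (194 bases before it), against 3.65% of all windows. The TATA motif was in those of Ankrd2 and Trim63, against 13.6%. The MEF2 motif (3.19% of all windows) and the serum response factor motif CArG (1.63%) matched in 0 of the 6. Only exact matches to the pattern set for each motif were counted, so looser forms were not sought. The E-box CANNTG, which 72.3% of all windows hold, was in 5 of the 6. These letter matches overlapped no match of another motif in the stretches printed, and they are a description of the windows, not of binding.

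Ankrd1 was brighter in atria than in ventricles in both genotypes. It had 11.91 in KO atria, against 11.86 in WT atria, and 11.52 in KO ventricles, against 11.30 in WT ventricles. Both atrial pools thus lay above both ventricular pools, and within each chamber the KO pool was the brighter one. The log2 ratio of KO to WT was 0.05 in atria (1.04-fold) and 0.23 in ventricles (1.17-fold). Of all genes above the floor, 80.5% differed by more than Ankrd1 between the atrial genotypes and 11.6% by more between the ventricular ones, so its ventricular ratio was among the larger ones there without reaching 1.5-fold. Atria minus ventricles was 0.39 in KO pools (1.31-fold) and 0.57 in WT pools (1.48-fold). This was the highest such ratio of 25 Ankrd genes above the floor in KO pools and of 23 in WT pools. Ankrd1 stood within 1 log2 unit of the brightest probe set on the atrial arrays, and whether its signal was compressed there was not tested.

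Ankrd23 ran the other way and was the 1 member past 2-fold between chambers. It had 8.78 in KO atria, against 8.85 in WT atria, and 11.27 in KO ventricles, against 11.23 in WT ventricles. The chambers were far apart and the genotypes close together, so atria minus ventricles was −2.49 in KO pools (5.63-fold lower) and −2.38 in WT pools (5.19-fold lower). In KO pools 0.682% and in WT pools 0.837% of genes above the floor differed by more between chambers. Ankrd23 had the lowest ratio of atria to ventricles of all Ankrd genes above the floor in both genotypes. The KO to WT ratio was −0.07 in atria and 0.04 in ventricles, or 1.05-fold lower and 1.03-fold higher. The 8 cardiomyocyte markers had a median of −0.09 in KO pools and −0.05 in WT pools for atria minus ventricles. Of these markers 7 were negative in each genotype and 0 were past 2-fold. Their summed linear intensity was 28135 in KO atria and 28942 in WT atria, against 30159 in KO ventricles and 30885 in WT ventricles. Several stood near the top of the scale, with Actc1 at 12.54 to 12.66, where signal may be compressed. The part of cardiomyocyte content in the Ankrd23 ratio was not tested. The 7 fibroblast markers all had positive ratios in both genotypes, with medians of 0.43 in KO pools and 0.95 in WT pools, and their part in the chamber ratios of the members was not tested.

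Ankrd2 stayed below the floor on all 4 arrays and was never counted. Its values were 5.58 in KO atria, against 5.40 in WT atria, and 5.53 in KO ventricles, against 5.43 in WT ventricles. The 4 values spanned 0.18, with the KO pool the brighter one in both chambers, at ratios of 0.18 and 0.10. Near background, RMA compresses differences, so these are weak readings. Of 18 skeletal fibre markers, 1 reached the floor in KO atria, against 6 in WT atria, and 2 in KO ventricles, against 4 in WT ventricles. The 6 in WT atria were Myl1, Casq1, Tnni2, Atp2a1, Tnnt3 and Mybpc2, at 5.73 to 9.43, while Myod1, Myog, Pax7, Myh1, Myh2 and Myh4 were below it on every array. The 18 markers together summed to 610 linear units in KO atria, against 1379 in WT atria, and to 570 in KO ventricles, against 1211 in WT ventricles. Of these markers Myl1 and Casq1 had the most negative ratios, at −3.77 and −1.91 in atria and −3.62 and −2.76 in ventricles. Also past 1.5-fold lower were Tnnt3 (−0.66) and Tnni2 (−0.59) in atria and Mybpc2 (−1.03) in ventricles, while the Ankrd2 ratios were positive.

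**Figure D1:**
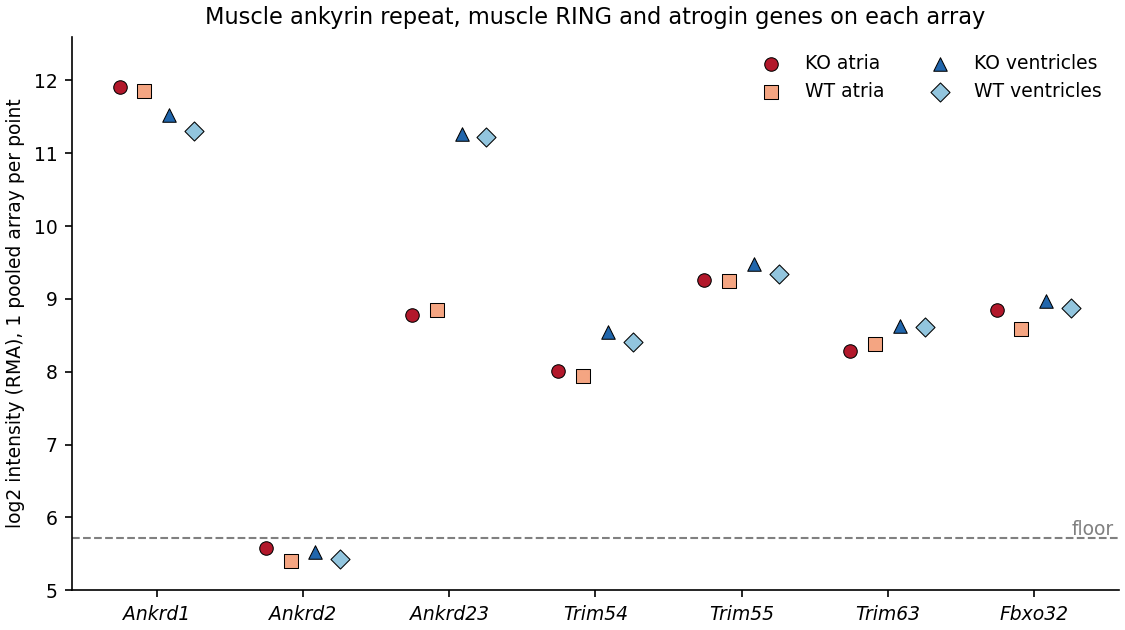
Log2 intensity (RMA) of each member on the 4 arrays, with 1 point per pooled array and the floor at 5.71 as a dashed line. Ankrd23 parts the chambers, Ankrd1 is brighter in atria, Ankrd2 lies below the floor, and KO and WT points of a chamber lie close together for all 7 genes.

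All 3 muscle RING genes were somewhat brighter in ventricles than in atria in both genotypes, each by less than 1.5-fold. Trim54, the gene of the microtubule-stabilising MuRF3, had 8.01 in KO atria, against 7.94 in WT atria, and 8.54 in KO ventricles, against 8.41 in WT ventricles. Both ventricular pools were above both atrial pools, with atria minus ventricles at −0.53 in KO pools and −0.47 in WT pools (1.44-fold and 1.38-fold lower). Trim54 had the largest chamber ratio of the 3, and its KO to WT ratios were 0.07 in atria and 0.13 in ventricles.

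Trim55, encoding MuRF2 of the titin kinase signalling complex, had 9.26 in KO atria, against 9.24 in WT atria, and 9.48 in KO ventricles, against 9.34 in WT ventricles. The 4 pools kept the order of Trim54 over a range of 0.24. Its chamber ratio was −0.22 in KO pools and −0.10 in WT pools, and its KO to WT ratio 0.02 in atria and 0.14 in ventricles. Among Trim genes above the floor, only 2 of 31 had a larger KO to WT ratio in ventricles than Trim55, and 3 had a larger one than Trim54.

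Trim63, the atrophy gene for MuRF1, had 8.29 in KO atria, against 8.38 in WT atria, and 8.63 in KO ventricles, against 8.62 in WT ventricles. The ventricular pools were level with each other and above the atrial ones, of which the KO pool was lowest. Its chamber ratio was −0.34 in KO pools and −0.24 in WT pools. The KO to WT ratio was −0.09 in atria and 0.01 in ventricles, the smallest ventricular ratio of the 7 genes.

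Fbxo32, the atrogin-1 gene, had the largest KO to WT ratio of the 7 in atria. It had 8.85 in KO atria, against 8.59 in WT atria, and 8.97 in KO ventricles, against 8.88 in WT ventricles. WT atria stood lowest and the other three pools lay at 8.85 to 8.97. The ratio was 0.26 in atria (1.20-fold) and 0.09 in ventricles (1.07-fold), and 24.2% of genes above the floor differed by more in atria. Of 24 Fbxo genes above the floor in atria 1 had a higher ratio. Atria minus ventricles was −0.12 in KO pools and −0.29 in WT pools. Trim63, which is often read together with Fbxo32 as an atrophy marker, was at −0.09 in the same atrial comparison.

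Knockout against wild type asked which transcripts differ in mice labelled as lacking MEF2A. None of the 7 genes reached 1.5-fold in either chamber, with ratios from −0.09 to 0.26 in atria and from 0.01 to 0.23 in ventricles. Of the members, 6 were above the floor in each comparison. In atria 3.03% of 10051 genes above the floor were past 1.5-fold (1.02% higher and 2.01% lower), and in ventricles 1.2% of 9713 (0.515% higher and 0.69% lower), so a count of 0 is close to that background. All 7 ratios also lay inside the central 95% of genes above the floor, which ran from −0.55 to 0.45 in atria and from −0.33 to 0.32 in ventricles. Counting all 7, 5 ratios were positive and 2 negative in atria, with a median of 0.05. Of genes above the floor 43.1% were positive there, with a median of −0.03, while the median of all genes with no floor was 0.04. In ventricles 7 of 7 were positive, with a median of 0.10. Of genes above the floor 51.2% were positive there, with a median of 0.00. The ventricular count was 6 of 7 when ratios were centred on a lowess curve over level, which put Trim63 at −0.01.

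**Figure D2:**
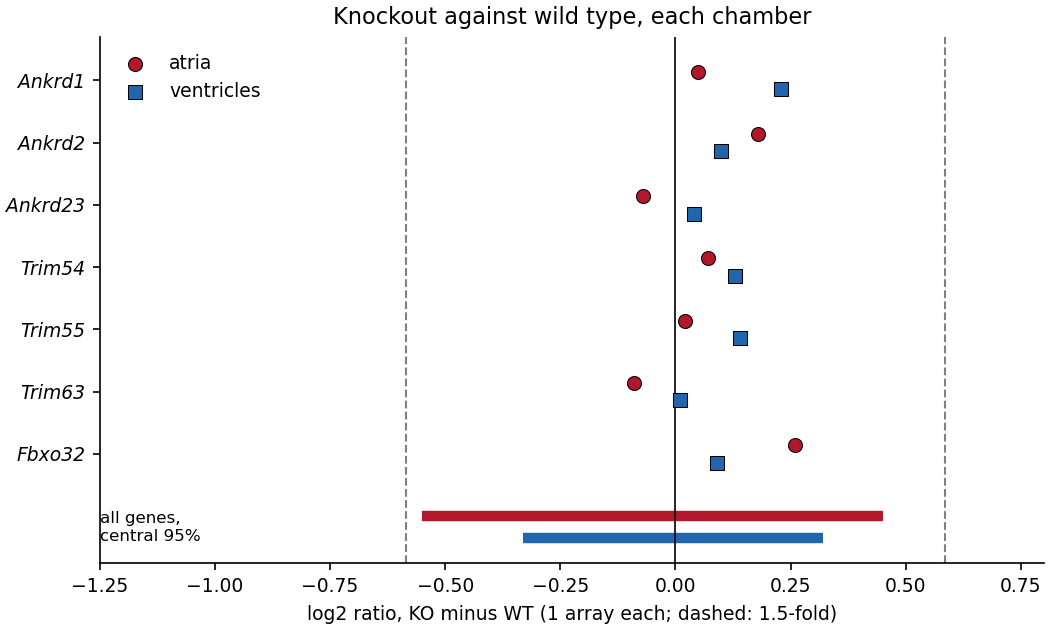
Log2 ratio of KO to WT for each member in atria (circles) and ventricles (squares), 1 array per group. Dashed lines mark 1.5-fold and the bars at the bottom the central 95% of all genes above the floor, from −0.55 to 0.45 in atria and −0.33 to 0.32 in ventricles, which hold every member.

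The knockout ratio differed little between the chambers. Ankrd1 had the most negative difference of the 7, atrial minus ventricular ratio, at −0.18, and Fbxo32 the most positive one at 0.17. The other five lay between −0.12 and 0.07. Ankrd23 and Trim63 had opposite signs in the chambers, at ratios of at most 0.09 in size. None of these differences could be tested.

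Atria against ventricles asked what separates the chambers. In both genotypes 1 of the 7 genes, Ankrd23, was past 2-fold, lower in atria, and 0 were past it higher. Among all genes above the floor, 6.3% of 10121 were past 2-fold in KO pools (3.46% higher and 2.85% lower in atria) and 6.1% of 10035 in WT pools (3.89% higher and 2.21% lower). With the arrays centred on their medians the KO calls split into 305 higher and 377 lower, against 350 and 288 as deposited. The median of the 7 ratios was −0.22 in KO pools and −0.24 in WT pools, with 2 positive and 5 negative in KO pools and 1 positive and 6 negative in WT pools. The medians of genes above the floor were −0.05 in KO pools and −0.01 in WT pools, and those of all genes with no floor 0.04 and −0.02. The central 95% of genes above the floor ran from −1.04 to 1.21 in KO pools and from −0.94 to 1.26 in WT pools. Ankrd23 was the 1 member outside it. The KO and WT chamber ratios share no array, and Ankrd23, Trim54, Trim55, Trim63 and Fbxo32 were lower and Ankrd1 higher in atria in both. Ankrd2 changed sign, from below the floor, at 0.04 in KO pools and −0.03 in WT pools. Its KO sign was negative under each of the 3 other scalings.

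**Figure D3:**
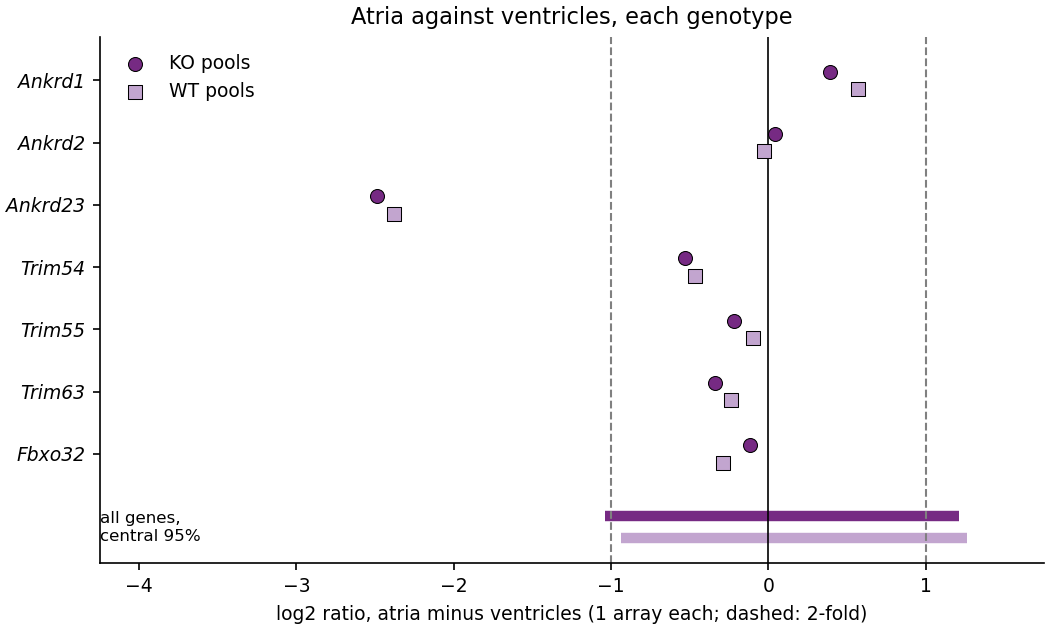
Log2 ratio of atria to ventricles for each member in KO pools (circles) and WT pools (squares), with 2-fold as dashed lines and the central 95% of all genes above the floor as bars. Ankrd23 lies at −2.49 and −2.38, outside the bars, and Ankrd1 at 0.39 and 0.57, on the other side of 0 from the other members above the floor.

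The members were also set among genes that share their symbol stem. Of 44 Ankrd genes, 25 were above the floor in the KO chamber comparison and 23 in the WT one, and Ankrd23 was the 1 gene past 2-fold in each. Of 63 Trim genes, 30 were above the floor between KO chambers and 31 between WT chambers. By ratio of atria to ventricles, Trim54, Trim63 and Trim55 held ranks 5, 7 and 10 from the lowest in KO pools and ranks 4, 7 and 11 in WT pools. Family medians were near 0: −0.08 and −0.14 for Ankrd, 0.03 and −0.02 for Trim, and −0.05 and −0.04 for Fbxo genes in KO and WT pools. Between genotypes, 0 Ankrd and 0 Fbxo genes were past 1.5-fold in either chamber, and 2 Trim genes were in atria, neither a member.

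**Figure D4:**
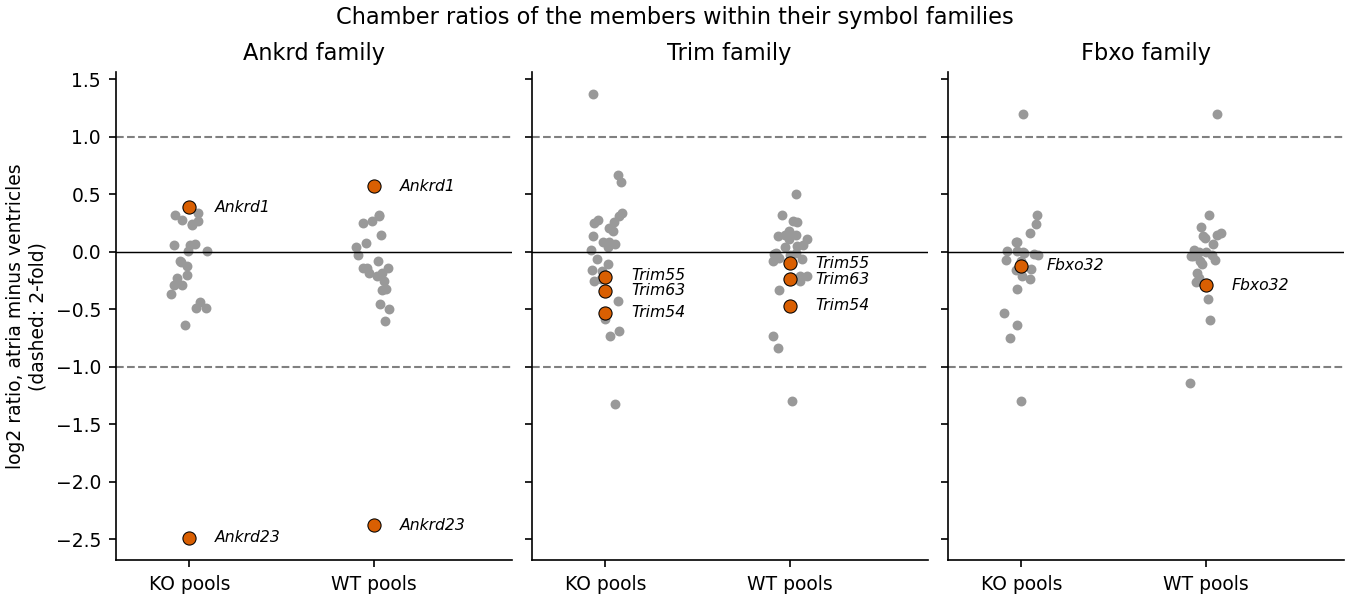
Log2 ratio of atria to ventricles for Ankrd, Trim and Fbxo genes above the floor, in KO pools (left of each panel) and WT pools (right), members in orange with their names and other genes in grey. Ankrd23 stands alone near −2.4, the RING members lie between −0.53 and −0.10, and Ankrd2 is not drawn because it was below the floor.

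Likeness of pattern was measured as the Euclidean distance between the 4 log2 values of 2 genes, each gene centred on its own mean. Ankrd23 had few neighbours, with 8 of 10326 genes within 0.5. The nearest was Kcnip2, which encodes an auxiliary subunit of the transient outward potassium channel, at a distance of 0.133. Kcnip2 stood at 6.81 in KO atria and 7.06 in WT atria, and at 9.45 in KO ventricles and 9.41 in WT ventricles. Next came Sh3rf2 at 0.189 and Myl3, the ventricular essential myosin light chain gene, at 0.247. The other members had between 3700 (Ankrd1) and 7595 (Trim55) genes within the same distance, so their nearest genes say little. These were Ckap4, Nhsl1 and Mast4 for Ankrd1, Colgalt1, Cdc42bpg and Cops7a for Ankrd2, and Hif1a, Plaa and Vps36 for Trim54. For Trim55 they were Rab17, Rsad1 and Serpinb9, for Trim63 Med21, Kbtbd2 and Abhd17c, and for Fbxo32 Tkfc, Ccl7 and Cdk2ap2. Among the members, the closest pairs were Trim55 with Trim63 (0.177) and Trim55 with Fbxo32 (0.178), and the farthest was Ankrd1 with Ankrd23 (2.92). The 3 ankyrin repeat genes were therefore less alike over the 4 pools than the RING genes and Fbxo32, whose pairs lay between 0.177 and 0.339. Each RING gene and Fbxo32 had between 4497 (Trim54) and 7595 (Trim55) genes within 0.5, so such closeness is not particular to them. Ankrd2, below the floor, was about as near to Trim55 (0.204) and Fbxo32 (0.224), and farther from Trim63 (0.36), Ankrd1 (0.488) and Trim54 (0.514). All pairs with Ankrd23 were at 1.94 or more.

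Partners of the ankyrin repeat proteins in titin and the Z-disc differed little between genotypes. Of 17 such genes with a probe set, 0 were past 1.5-fold in either chamber. In atria 16 were above the floor, with 14 negative and 2 positive and a median of −0.10. Of all genes above the floor 43.1% were positive there, with a median of −0.03. In ventricles 9 partners were positive and 8 negative, with a median of 0.02. Fhl2, a LIM protein that also binds titin, was nearest in atria, at 9.30 in KO atria and 9.84 in WT atria, and the calpain gene Capn3 had the largest size in ventricles, at −0.53. Titin itself, Ttn, was at −0.13 in atria and −0.06 in ventricles. Between chambers, Fhl2 was the 1 partner past 2-fold, lower in atria at −1.70 in KO pools and −1.41 in WT pools, the direction of Ankrd23. The gene of myopalladin, Mypn, to which CARP binds, was at −0.43 and −0.17 in the same comparisons.

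Some other load and stretch responsive genes were past 1.5-fold between genotypes, while most of the list and the ankyrin repeat genes were not. Of 21 listed genes, 2 were past 1.5-fold higher and 1 lower in KO atria, and 2 higher and 2 lower in KO ventricles. These were 15% of the listed genes above the floor in atria and 21.1% in ventricles. Among all genes above the floor the shares were 3.03% and 1.2%. The list was drawn up with earlier results of these data known, so the contrast is not an independent one. The matricellular gene Ccn2 was at 11.08 in KO atria, against 10.22 in WT atria, and at 9.50 in KO ventricles, against 8.81 in WT ventricles. Ccn2 and Ccn1, both known like Ankrd1 as YAP and TEAD targets, had ratios of 0.86 and 0.91 in atria and 0.69 and 0.42 in ventricles, beside 0.05 and 0.23 for Ankrd1. Of 20 YAP and TEAD pathway genes these were the 2 past 1.5-fold in atria, and Ccn2 the 1 in ventricles, with list medians of 0.10 and −0.04. Xirp2, an actin-binding protein gene, was at −2.24 in atria and −1.06 in ventricles, Acta1, skeletal alpha actin, at −1.82 in ventricles, and Myh7, slow myosin, at 0.99 there. Most listed genes were not past 1.5-fold, among them Nppa, at −0.12 in atria and −0.01 in ventricles.

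**Figure D5:**
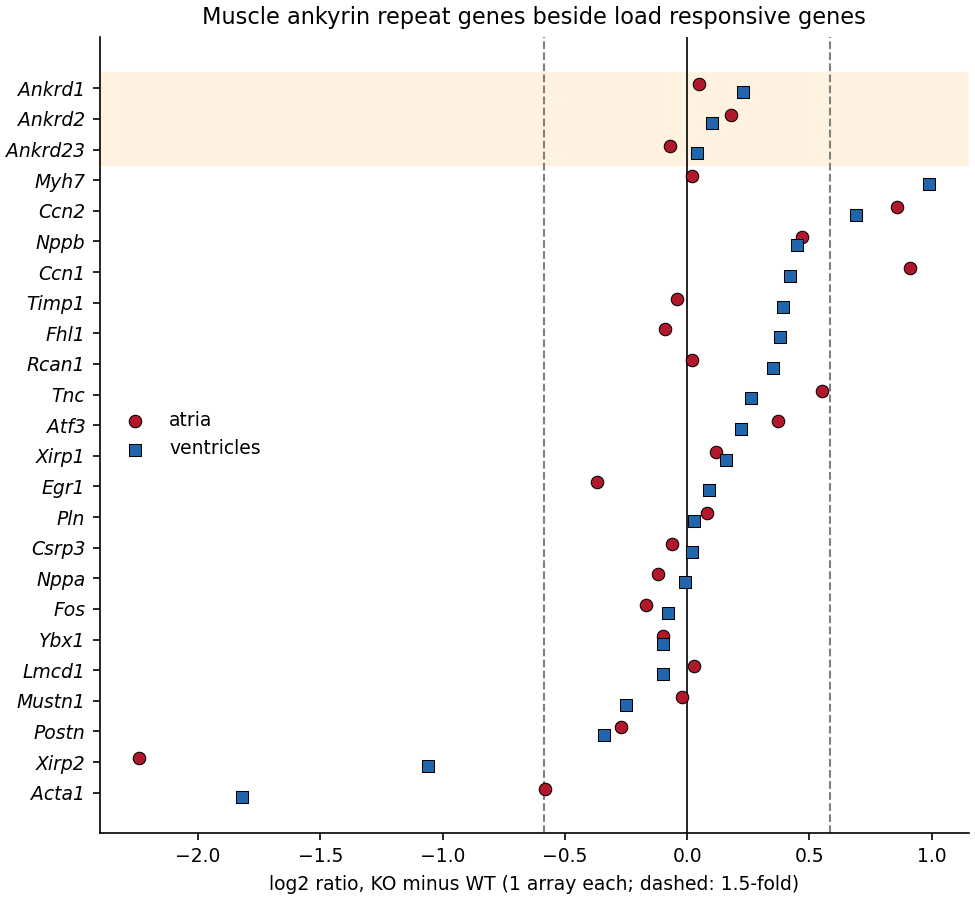
Log2 ratio of KO to WT in atria (circles) and ventricles (squares) for the 3 ankyrin repeat genes (shaded rows) and 21 load or stretch responsive genes, with 1.5-fold as dashed lines. The shaded genes lie between −0.07 and 0.23, while Ccn2, Ccn1, Myh7, Xirp2 and Acta1 pass the lines in at least 1 chamber. Most of the 21 listed genes do not.

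The machinery around Fbxo32 and Trim63 was read from lists of other atrophy ligases, SCF and conjugating partners, FOXO genes and upstream inputs. Of 17 other atrophy ligases 0 were past 1.5-fold between genotypes in either chamber, with 10 negative and 7 positive in atria and 7 negative and 10 positive in ventricles. The F-box gene Fbxo25 had the largest size in atria, at −0.44, and Fbxl22 in ventricles, at −0.34. Of 12 partners, Skp1, the adaptor that joins F-box proteins such as atrogin-1 to the cullin, was past it in atria. Skp1 had 9.51 in KO atria, against 10.32 in WT atria, a ratio of −0.81, and 10.29 in KO ventricles, against 10.20 in WT ventricles. The cullin gene Cul1 was at −0.29 in atria and 0.05 in ventricles. Of 24 FOXO factors and targets 0 were past 1.5-fold between genotypes, with Sesn3 at −0.46 in atria and Gadd45a at 0.56 in ventricles the largest. Foxo1 and Foxo3 were at −0.03 and −0.02 in atria and −0.05 and −0.16 in ventricles. Of 20 genes of insulin-like growth factor, glucocorticoid and myostatin signalling, Igf1, a growth factor that restrains the atrophy genes, was past it in atria, at 6.87 in KO atria and 7.64 in WT atria. The 7 fibroblast markers also all had negative ratios in atria, with a median of −0.51 and Lum (−0.84), Pdgfra (−0.63) and Dpt (−0.62) past 1.5-fold, and their part in the Igf1 ratio was not tested.

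Between chambers the ligase list held 1 gene past 2-fold, Fbxo40, a muscle F-box gene, lower in atria at −1.30 in KO pools and −1.14 in WT pools. Of the 17 ligases 15 were negative in KO pools and 14 in WT pools, with medians of −0.17 and −0.23, beside −0.34 and −0.24 for Trim63 and −0.12 and −0.29 for Fbxo32. Substrates and binding partners of the RING and F-box ligases were past 1.5-fold between genotypes for 1 of 17 genes, Myh7 in ventricles. The troponin I gene Tnni3, a known MuRF1 target, was at −0.05 and −0.01, and the muscle creatine kinase gene Ckm, bound by MuRF1, at −0.01 and 0.03 in atria and ventricles. Past 2-fold lower in atria were Myl3, Myl2 and Myh7, at −2.36, −1.90 and −2.12 in KO pools and −2.08, −1.87 and −1.15 in WT pools. Myl7, the atrial light chain, was higher in atria by 5.55 and 5.11. Among the inputs, Smad7, an inhibitor of the TGF-beta pathway, was past 2-fold higher in atria in both genotypes, by 1.08 in KO pools and 1.13 in WT pools, and Igf1 in WT pools (1.06, beside 0.49 in KO pools). Of the FOXO list Gadd45a was past 2-fold lower in atria in KO pools, at −1.32, beside −0.92 in WT pools.

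Markers of other cells were read for the same comparisons. Cardiomyocyte markers were past 1.5-fold between genotypes for 0 of 8 genes in both chambers, with medians of −0.02 in atria and −0.03 in ventricles. Fibroblast markers, given above for atria, had 7 of 7 negative ratios in ventricles too, with a median of −0.13 and 0 past 1.5-fold. Of the atrial markers 5 were above the floor between the ventricular genotypes and all 5 were negative, with a median of −0.32. Sln was past 1.5-fold there, at −0.85, and Myl7 was at −0.54, in the comparison where 7 of 7 members had positive ratios. In atria the 6 atrial markers had a median of −0.07, with 0 past 1.5-fold, and the ventricular markers had medians of −0.14 in atria and 0.02 in ventricles. Endothelial markers had medians of 0.02 and 0.04, and macrophage markers 0.01 and −0.13, with 0 past 1.5-fold. Smooth muscle markers had medians of 0.04 and −0.05, with Acta2 higher (0.61) and Cnn1 lower (−1.29) in KO atria. Of 6 adipocyte markers 2 were above the floor in atria and Retn was lower there, at −1.07. The part of these markers in the ratios of the 7 members was not tested.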

How the data were processed

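Total RNA of mouse atria and ventricles was pooled by genotype and chamber and labelled with biotin for 4 whole-transcript arrays. The deposited table holds log2 intensity by probe set, made by the authors with RMA and the affy package, per the submitters' processing notes. Tool versions, probe set definitions and genome build are not given in the sources used here. Of 21212 probe sets, 18786 had 1 gene symbol in the platform annotation, 6 several and 2420 none. Symbols were updated through RefSeq (GRCm38.p6), 18775 by gene number and 4 by accession, with 7 kept. Of 3 symbols with several probe sets the brightest was kept.

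Ratios are differences of 2 log2 values, computed with Python 3.11.15, numpy 2.4.6 and pandas 2.3.3. With 1 array per group no test was run, and the number of arrays limits the precision. Counting was tested on simulated data with known changes. Those changes were well past the fold, in genes well above the floor and with little noise. The test checked the code and not how reliable the counts are on these arrays. Alternatives were median centring, quantile normalization, lowess centring (statsmodels 0.14.6, fraction 0.3, 3 iterations), no floor, a floor at the 75th percentile (7.27), and 2-fold for genotype with 1.5-fold for chamber. The members, 18 gene lists of 208 genes (202 with a probe set), folds and floor were chosen with earlier results of these data known. The rule for names took list genes past the fold (up to 4 per direction, otherwise the 2 of largest size) and the 3 nearest genes of each member. Not every list gene it took is named: which ones are was settled with their values known, and the rest are in the counts. Further genes outside the rule (Actc1, Ttn, Mypn, Cul1, Foxo1, Foxo3, Tnni3, Ckm, Atp2a1, Myod1, Myog, Pax7, Myh1, Myh2, Myh4) were added after their values were seen.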

Additional observations from a re-analysis of the deposited data

Results flagged for a closer look

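Ankrd23 and Trim63 had KO to WT ratios of opposite sign in the chambers, which is what singled them out. For Ankrd23 the ratio was −0.07 in atria and 0.04 in ventricles, a difference of −0.12. For Trim63 it was −0.09 and 0.01, a difference of −0.10. The difference was not tested, since each chamber had 1 array per genotype, and all 4 ratios were far below 1.5-fold. The ventricular ratio of Trim63 was −0.01 under lowess centring, which removes the opposite signs there.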

How the results depend on the processing

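The counts of members past the fold, by direction, were the same in 48 of 48 recomputations over 4 comparisons and 6 alternatives. All 168 recomputed ratios of the 7 genes stayed on their side of the fold. Many of these outcomes were fixed in advance, since a higher floor or 2-fold for genotype could not add to a count. The changes of floor and fold also left every ratio as it was, so a sign could turn only under median, quantile or lowess centring. The Ankrd23 chamber ratio ran from −2.58 to −2.35 in KO pools and from −2.41 to −2.30 in WT pools, and that of Ankrd1 from 0.30 to 0.58 and from 0.54 to 0.70. Scaling and fold were not varied together. Ankrd1 between WT chambers, at 0.57, lay just under the 1.5-fold line of 0.58 and was past it, at 0.70, under lowess centring. The sign turned in 5 of 168: Trim55 in atria by genotype (−0.01 under median centring), Trim63 in ventricles by genotype (−0.01 under lowess centring), and Ankrd2 between KO chambers (−0.05, −0.07 and −0.06 under median, quantile and lowess centring). The counts over all genes depended on the floor and fold. In atria by genotype 103 genes were past 1.5-fold higher and 202 lower, against 289 and 269 with no floor, 35 and 80 with the higher floor, and 17 and 48 at 2-fold. In ventricles 50 and 67 became 99 and 121, 22 and 34, and 14 and 22. Between chambers the higher floor left 219 genes higher and 200 lower in atria in KO pools, against 350 and 288, and 253 and 153 in WT pools, against 390 and 222. At 1.5-fold between chambers 789 and 1026 genes were counted in KO pools and 847 and 785 in WT pools. Samples could not be paired by replicate, with 1 array in each group. A model of genotype plus chamber has 1 residual degree of freedom, whose error is the difference of the knockout ratio between chambers and not the spread between animals, and it was left out. Values near background, as for Ankrd2, limit what can be read.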

Other observations

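Some other Trim genes parted the pools more than the RING members did. Trim67 had 7.38 in KO atria, against 6.64 in WT atria, a ratio of 0.73, and was higher by 1.37 in KO atria than in KO ventricles. Trim12c had 4.90 in KO atria, against 5.73 in WT atria, a ratio of −0.83, and was above the floor on the WT array of that pair only. Trim7 had 4.63 in WT atria, below the floor, against 5.92 in WT ventricles, only just above it. Among Fbxo genes, Fbxo16 was higher in atria by 1.20 in both genotypes. It was only just above the floor in atria, at 5.80 in KO and 5.83 in WT pools. In ventricles it was below the floor, at 4.59 and 4.62.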
